A study of Mus musculus with 12 samples.

Results

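Vertebrate cells detect viral nucleic acids with a small set of proteins, and 10 genes for such sensors and adaptors were followed here during adipogenesis of the mouse line 3T3-L1, fibroblasts that can be induced to become adipocytes in culture. The genes were taken by symbol from a table of 55487 genes. They are the RIG-I-like receptors Ddx58 (RIG-I), Ifih1 (MDA5) and Dhx58 (LGP2) with their adaptor Mavs, the double-stranded RNA proteins Tlr3, Eif2ak2 (PKR), Zbp1 and Adar, and the DNA sensor Cgas with its adaptor Sting1. Symbol matching found 9 of them under the listed symbol, and Tmem173 was found as Sting1, its current name, through its Ensembl identifier. All 10 passed the filter on low values, a level of at least 1 TPM (the deposited level, corrected for transcript length and for the total of the library) in 2 libraries.

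RNA was sequenced from 12 libraries, 2 in each of 6 groups. One line expressed the scrambled hairpin shScram and the other the hairpin shFTO against Fto, which encodes an RNA demethylase. Each line was sampled as growth-arrested preadipocytes (Pre), at the stage of mitotic clonal expansion (MCE) that follows the hormonal MDI induction mix, and after differentiation (Diff). Both lines, the control included, had been infected with a lentiviral vector that carried the hairpin and had been selected with puromycin, and which of the Fto hairpins was sequenced is not given in the sources used here. The general text of the labels mentions rhein and DMSO, but no library's own treatment entry names rhein. The first shScram Diff library is called shScram in its title and Fto knockdown in its treatment entry, and the title was followed. Each genotype was 1 line, so the hairpin and the history of the line cannot be told apart, and no source says whether the libraries of a group came from separate cultures. The p-values therefore measure the spread between these libraries, which may be technical.

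Fto itself was measured at 52.7 and 58.3 TPM in shScram Pre, 59.1 and 55.7 TPM in shScram MCE, and 73.5 and 70.8 TPM in shScram Diff. In the shFTO line it lay between 5.51 and 7.47 TPM in all 6 libraries. The first shScram Diff library, at 73.5 TPM, stood with the other controls. Depth cannot be read from TPM values and is unknown. Libraries of a group correlated at 0.9896 to 0.9934, with the exception of shScram Pre at 0.9388. Leaving out either shScram Pre library changed some calls, directions and values. For the sensors and adaptors only part of these changes is given, and for other genes none. A result given without such a fit is therefore not shown to be stable. Fibroblast markers were abundant in every group, with sums over 8 genes of 4618 to 10690 TPM. The leukocyte markers, also 8 genes, summed to 1.62 to 10.98 TPM, with Adgre1 and Cd3e listed at 0 in all libraries. The adipocyte markers, also 8 genes, summed to 129.9 to 192.0 TPM in shScram Pre and 265.9 to 297.6 TPM in shFTO Pre. Among them Lep, Plin1, Cidec, Retn and Adipoq were near or at 0 in both Pre groups, so the sums came from the other markers. Adipoq averaged 74.8 TPM in shScram Diff and 4.86 TPM in shFTO Diff.

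RIG-I and MDA5 bind double-stranded RNA in the cytosol, RIG-I preferring short ends that carry a triphosphate and MDA5 long duplexes, and both pass the signal to MAVS on the mitochondrial surface. LGP2 resembles them but lacks the caspase recruitment domains needed to signal and modulates the other two. TLR3 reads double-stranded RNA in endosomes, PKR phosphorylates the initiation factor eIF2alpha, ZBP1 recognises left-handed Z-form nucleic acid, and ADAR edits adenosine to inosine in duplex RNA, which keeps the cell's own RNA from being sensed. cGAS makes the cyclic dinucleotide that activates STING when DNA appears in the cytosol. Both routes lead through the kinase TBK1 and the factors IRF3 and IRF7 to type I interferon, and most of these sensors are in turn known interferon-stimulated genes. Fibroblasts and preadipocytes carry them as other tissue cells do.

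Many interferon-stimulated genes carry a site known as the interferon-stimulated response element, whose core reads GAAA, any 2 bases, GAAA. The core was searched, on both strands, in RefSeq promoters of the GRCm38.p6 assembly, from 250 bases before to 50 bases after each start. The table held promoters for 7 of the 10 genes, Ddx58, Ifih1, Mavs, Tlr3, Eif2ak2, Adar and Cgas, and the core occurred in 3 of them. Mavs, Tlr3, Adar and Cgas had no match, and Dhx58, Zbp1 and Sting1 could not be searched. Over all 32851 promoters 3.44% held it, and over 27025 genes 3.99% had a promoter that held it. The matching windows are shown 5′ to 3′ on the strand of the gene, 30 bases each, with the core in capitals. In Ddx58 the capitals are its reverse complement. The windows are chr4:40239804-40239833, chr2:62646206-62646235 and chr17:78882535-78882564, all on the minus strand, and the core begins at base 3, 33 and 19 downstream of the annotated start. A match describes the letters and does not show binding, and its part in the levels of these genes was not tested.
Ddx58: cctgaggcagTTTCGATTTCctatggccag
Ifih1: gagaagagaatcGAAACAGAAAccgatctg
Eif2ak2: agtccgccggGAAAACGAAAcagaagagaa

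On GRCm38 the 3 receptor genes lie on separate chromosomes, Ddx58 at chr4:40203773-40239828, Ifih1 at chr2:62595798-62646255 and Dhx58 at chr11:100694884-100704271. Mavs is at chr2:131234063-131248025, Tlr3 at chr8:45395665-45411080, Eif2ak2 at chr17:78852564-78882573 and Zbp1 at chr2:173206612-173218923. Adar is at chr3:89715022-89753446, Cgas at chr9:78430526-78443237 and Sting1 at chr18:35733679-35740554. Mavs and Adar are on the plus strand and the others on the minus strand, and all 10 are annotated as protein-coding. Exons of Dhx58, Tlr3, Eif2ak2, Adar and Cgas overlap genes on the opposite strand. The strand setting of the quantification is not given in the sources used here, so reads of such a pair could not be told apart. The overlapping genes that had a value averaged at most 2.19 TPM (Dhx58os, antisense to Dhx58).

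RIG-I-like receptors were high in preadipocytes and low from MCE onward in both lines. Ddx58 was at 242.8 and 155.5 TPM in shScram Pre, 27.4 and 22.2 TPM in shScram MCE, and 37.5 and 40.0 TPM in shScram Diff. In the shFTO line its levels were 119.4 and 133.3 TPM as Pre, 36.9 and 34.9 TPM at MCE, and 49.6 and 49.6 TPM at Diff. The order of its 6 groups by mean ran from shScram Pre through shFTO Pre, shFTO Diff, shScram Diff and shFTO MCE to shScram MCE, and no neighbours in that order overlapped. The knockdown line was thus the lower one in preadipocytes and the higher one at both later stages. Pairs without overlap were common, however. Between the lines they were found for 60.55% of all genes tested at Pre, 71.39% at MCE and 72.94% at Diff. Between successive stages of a line the share was 62.54% to 78.83%.

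Ifih1 had the lowest mean of the receptors at MCE, although in the second shFTO MCE library it stood above Dhx58. It was measured at 27.5 and 20.3 TPM in shScram Pre, 1.97 and 1.33 TPM in shScram MCE, and 2.67 and 3.49 TPM in shScram Diff. The shFTO libraries had 16.1 and 19.7 TPM as Pre, 3.45 and 4.91 TPM at MCE, and 7.28 and 6.03 TPM at Diff. At MCE and Diff both knockdown libraries lay above both controls, whereas in preadipocytes they lay below them. The shFTO MCE and shScram Diff groups overlapped.

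Dhx58 read 34.5 and 74.1 TPM in shScram Pre, an unequal pair, then 2.95 and 3.60 TPM in shScram MCE and 7.61 and 8.18 TPM in shScram Diff. With the Fto hairpin it read 60.7 and 57.1 TPM as Pre, 4.96 and 4.07 TPM at MCE, and 17.5 and 13.3 TPM at Diff. The Pre groups overlapped, and the other neighbouring groups did not. Because TPM is corrected for length, levels of the receptors can be set against each other. The ratio of the Ddx58 to the Ifih1 level was 8.84 and 7.68 in shScram Pre and 7.40 and 6.78 in shFTO Pre. At MCE it was 13.9 and 16.7 in shScram against 10.7 and 7.11 in shFTO, and at Diff 14.0 and 11.5 against 6.81 and 8.23. RIG-I transcripts thus outnumbered MDA5 transcripts in every library, by more in the shScram than in the shFTO libraries at each stage, though narrowly at Pre.

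Mavs, the mitochondrial adaptor on which RIG-I and MDA5 converge, was lower at MCE than at Pre in the shFTO libraries, while the shScram Pre pair straddled the shScram MCE pair. Its level was 21.6 and 39.4 TPM in shScram Pre, 28.7 and 27.4 TPM in shScram MCE, and 34.0 and 33.8 TPM in shScram Diff. In shFTO cells it was 30.1 and 29.2 TPM as Pre, 19.2 and 17.9 TPM at MCE, and 26.2 and 26.7 TPM at Diff. Both knockdown libraries lay below both controls at MCE and at Diff, the reverse of most sensors. Of all genes tested 30.32% lay so at MCE and 33.97% at Diff. The 2 shScram Pre libraries spanned all other groups but shFTO MCE.

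Tlr3, the endosomal sensor, was measured at 45.5 and 34.4 TPM in shScram Pre, 4.49 and 2.98 TPM in shScram MCE, and 8.04 and 10.3 TPM in shScram Diff. In the shFTO line it was at 32.1 and 42.6 TPM as Pre, 4.91 and 5.53 TPM at MCE, and 7.31 and 7.39 TPM at Diff. The lines overlapped in preadipocytes and lay close together afterwards, with shFTO above at MCE and below at Diff.

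Eif2ak2, the gene for the translation-blocking kinase PKR, was together with Ddx58 the most abundant of the 10 in control preadipocytes. It had 242.5 and 173.8 TPM in shScram Pre, 32.5 and 28.0 TPM in shScram MCE, and 36.2 and 45.6 TPM in shScram Diff. In shFTO cells the levels were 86.8 and 109.0 TPM as Pre, 29.7 and 28.4 TPM at MCE, and 43.6 and 42.6 TPM at Diff. The lines were separate in preadipocytes and overlapped at MCE and at Diff.

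Zbp1 had the largest ratio of highest to lowest library of the 10. It stood at 48.0 and 31.6 TPM in shScram Pre, 1.03 and 0.21 TPM in shScram MCE, and 4.31 and 3.07 TPM in shScram Diff. The knockdown libraries had 55.5 and 51.3 TPM as Pre, 5.14 and 5.31 TPM at MCE, and 17.5 and 19.5 TPM at Diff. Every shFTO pair lay above its shScram pair, and no groups overlapped in the order of means.

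Adar followed the same course on a smaller scale. Its levels were 62.2 and 98.95 TPM in shScram Pre, 18.0 and 16.9 TPM in shScram MCE, and 23.3 and 25.2 TPM in shScram Diff. The shFTO levels were 83.3 and 90.5 TPM as Pre, 22.8 and 23.8 TPM at MCE, and 39.5 and 35.0 TPM at Diff. The Pre pairs overlapped, and at both later stages the knockdown pair was the higher one.

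Cgas, which detects DNA, was expressed below 10 TPM throughout. It was at 7.96 and 5.47 TPM in shScram Pre, 4.99 and 4.34 TPM in shScram MCE, and 2.62 and 2.68 TPM in shScram Diff. In shFTO cells it was at 5.66 and 7.23 TPM as Pre, 8.87 and 7.94 TPM at MCE, and 4.02 and 4.15 TPM at Diff. Its highest group by mean was shFTO MCE, which overlapped shScram Pre, as shScram Pre overlapped shFTO Pre, and MCE was the stage at which most of the other genes were lowest.

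Sting1, the adaptor of cGAS on the endoplasmic reticulum, ended at its preadipocyte level in the shFTO line and below it in the shScram line. Control levels were 39.5 and 38.4 TPM as Pre, 6.71 and 6.53 TPM at MCE, and 12.5 and 14.2 TPM at Diff. Knockdown levels were 43.0 and 44.6 TPM as Pre, 15.6 and 17.9 TPM at MCE, and 40.9 and 47.5 TPM at Diff. The shFTO Diff pair overlapped the shFTO Pre pair, while the shScram Diff pair stayed far below the shScram Pre pair.

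**Figure D1:**
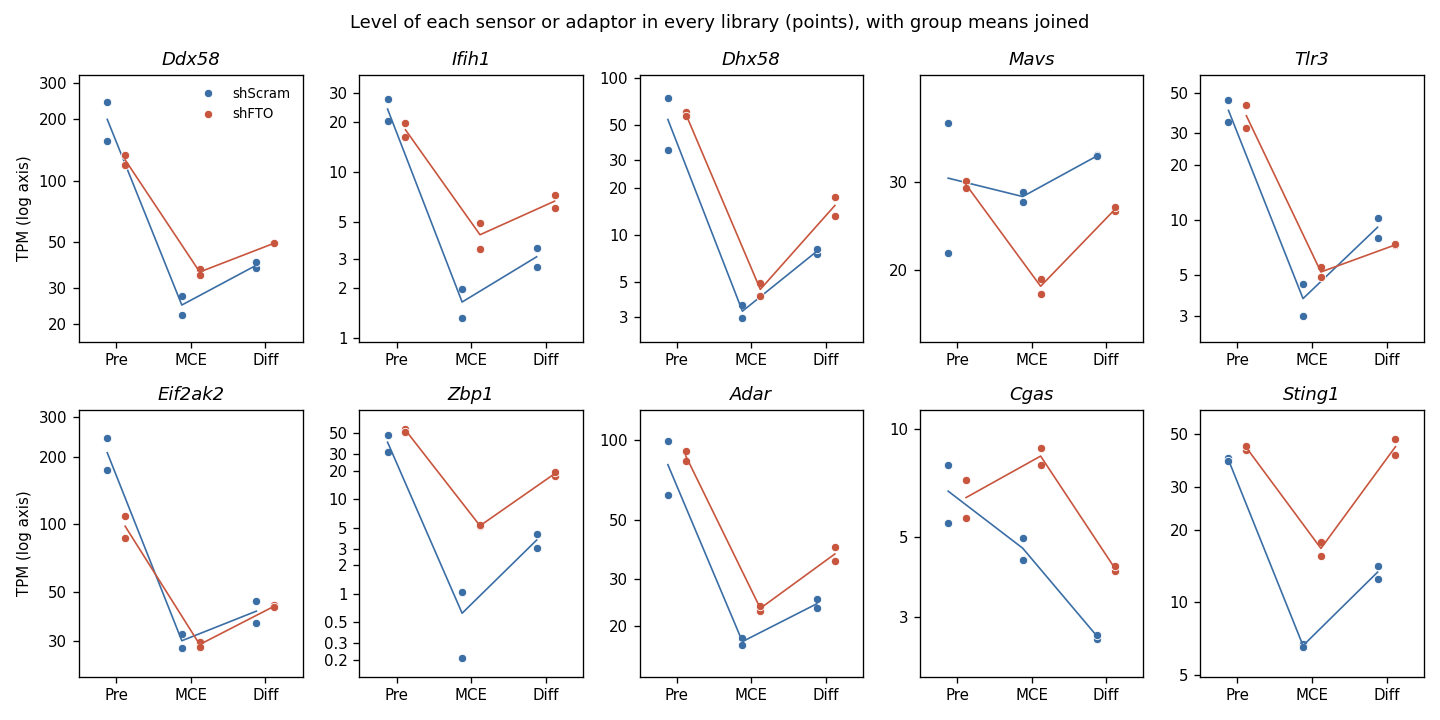
TPM of the 10 genes on logarithmic axes that differ between panels, with 1 point per library at Pre, MCE and Diff in the shScram (blue) and shFTO (red) lines and lines joining the group means. Most sensors drop steeply from Pre to MCE in both lines, the MCE mean of Mavs is 62.5% of the Pre mean in shFTO and 91.9% in shScram, that of Cgas is 69.4% in shScram and 130.4% in shFTO, and Sting1 in the shFTO line reaches 40.9 and 47.5 TPM at Diff against 12.5 and 14.2 TPM in shScram.

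The first comparison asked how the sensors changed from preadipocytes to MCE. In the shScram line 8 of the 10 genes fell and none rose, against a background, over all genes tested, of 26.9% called lower and 12.2% higher (39.1% in either direction, limma, adjusted p under 0.05). The median log2 difference of the 10 was -2.83, and that of all genes tested -0.17. In a bulk sample, fewer cells expressing a gene and less RNA per cell cannot be told apart. Zbp1 fell by 4.67 on the log2(TPM + 1) scale (SE 0.27, adjusted p = 5.32e-06), to 1.57% of its preadipocyte mean. The differences of the other 7 were -3.60 for Dhx58, -3.23 for Ifih1, -3.12 for Tlr3, -2.93 for Ddx58, -2.73 for Eif2ak2, -2.39 for Sting1 and -2.11 for Adar. Mavs differed by -0.06 (adjusted p = 0.854) and Cgas by -0.43 (adjusted p = 0.102). Mavs passed as lower without the first shScram Pre library (-0.48) and as higher without the second (0.36), and Cgas passed as lower without the second (-0.66), while the difference of Dhx58 moved to -4.14 and -3.06. Thus all the RNA sensors were lower at MCE, whereas the adaptor Mavs and the DNA sensor Cgas did not pass the test.

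In the shFTO line the same 8 genes fell between these stages, and none rose, with a background of 19.9% lower and 8.80% higher (28.7% in all). The median over the 10 genes was -1.82, and over all genes -0.18. Dhx58 fell by 3.45 (SE 0.30, adjusted p = 6.61e-05) and Zbp1 by 3.13 (SE 0.27, adjusted p = 6.15e-05). For Tlr3, Ifih1, Adar, Ddx58, Eif2ak2 and Sting1 the differences were -2.61, -1.88, -1.86, -1.79, -1.71 and -1.34. Mavs differed by -0.65 (interval -1.16 to -0.14, adjusted p = 0.0597), passing in 3 of 20 alternative settings, and Cgas by 0.34 (adjusted p = 0.219). Over the 20 alternative settings 7 to 10 of the genes passed in shScram and 8 or 9 in shFTO, and the 8 named falls held in all of them, except that of Adar in shScram in the fit of these 4 libraries alone (adjusted p = 0.0521). The general shift of TPM between these stages, medians of -0.17 and -0.18 for all genes, is small beside these falls.

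From MCE to Diff part of the level came back. In shScram 5 genes rose (background 20.0% higher, 25.2% in either direction), Zbp1 by 1.57, Tlr3 by 1.11, Dhx58 by 1.06, Sting1 by 0.91 and Ddx58 by 0.63. Cgas fell by 0.63 (adjusted p = 0.0398, background 5.22% lower). Ifih1, Eif2ak2, Adar and Mavs differed by 0.63, 0.42, 0.45 and 0.26 without passing. All genes tested had a median difference of 0.23 between these stages, and the 10 genes 0.63. The 6 calls became 10 when either shScram Pre library was left out, and 2 or 3 without either MCE or either Diff control library. The Ddx58 rise passed in 5 of 20 alternative settings, the Dhx58 rise in 9 and the Cgas fall in 10, and median-ratio scaling and quantile normalization each ended the calls of Ddx58 and Dhx58.

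In shFTO 4 genes rose from MCE to Diff (background 20.2% higher, 26.7% in either direction), Zbp1 by 1.65, Dhx58 by 1.57, Sting1 by 1.35 and Adar by 0.65. Cgas fell by 0.89 (adjusted p = 0.00921, background 6.48% lower). Ddx58, Ifih1, Eif2ak2, Tlr3 and Mavs differed by 0.46, 0.57, 0.55, 0.43 and 0.49 without passing. The median over all genes was 0.17, and over the 10 genes 0.56. The 5 calls became 9 without either shScram Pre library, 3 without the first shFTO MCE or the second shFTO Diff library, and 2 without the first shFTO Diff library. The Adar rise passed in 7 of 20 alternative settings and in neither other scaling.

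Expressed as a share of the mean of the same line as preadipocytes, Sting1 stood at 17.0% at MCE and 34.3% at Diff in shScram, and at 38.2% and 100.9% in shFTO. Zbp1 stood at 1.57% and 9.27% in shScram against 9.78% and 34.6% in shFTO. For Ifih1 the shares were 6.90% and 12.9% against 23.3% and 37.2%. These are the 3 genes that the knockdown comparison called higher at both later stages. For Ddx58 the shares were 12.4% and 19.5% against 28.4% and 39.3%, and for Eif2ak2 14.5% and 19.7% against 29.7% and 44.0%. In both of these the lower preadipocyte level of the shFTO line enters the share. It enters that of Ifih1 as well, with a Pre mean of 17.9 TPM in shFTO against 23.85 TPM in shScram, a difference that was not called. Dhx58 kept 6.04% and 14.5% against 7.66% and 26.2%, and Adar 21.7% and 30.1% against 26.8% and 42.9%. In shScram these shares divide by an unequal Pre pair. With the first Pre library alone Dhx58 stood at 9.50% and 22.9% and Adar at 28.1% and 39.0%, so that at MCE both shares exceeded those of shFTO, and with the second alone at 4.42% and 10.7% and at 17.7% and 24.5%. The share of Mavs at Diff, 110.9% in shScram against 89.3% in shFTO, became 156.6% and 85.9%. For the other 7 genes either choice, made after seeing the data, kept the order of the lines at both stages. Tlr3 was the one sensor whose share at Diff was smaller in the shFTO line, 19.7% against 23.0%. Mavs and Cgas had the highest shares of the 10 at MCE in both lines, 91.9% and 69.4% in shScram and 62.5% and 130.4% in shFTO.

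**Figure D2:**
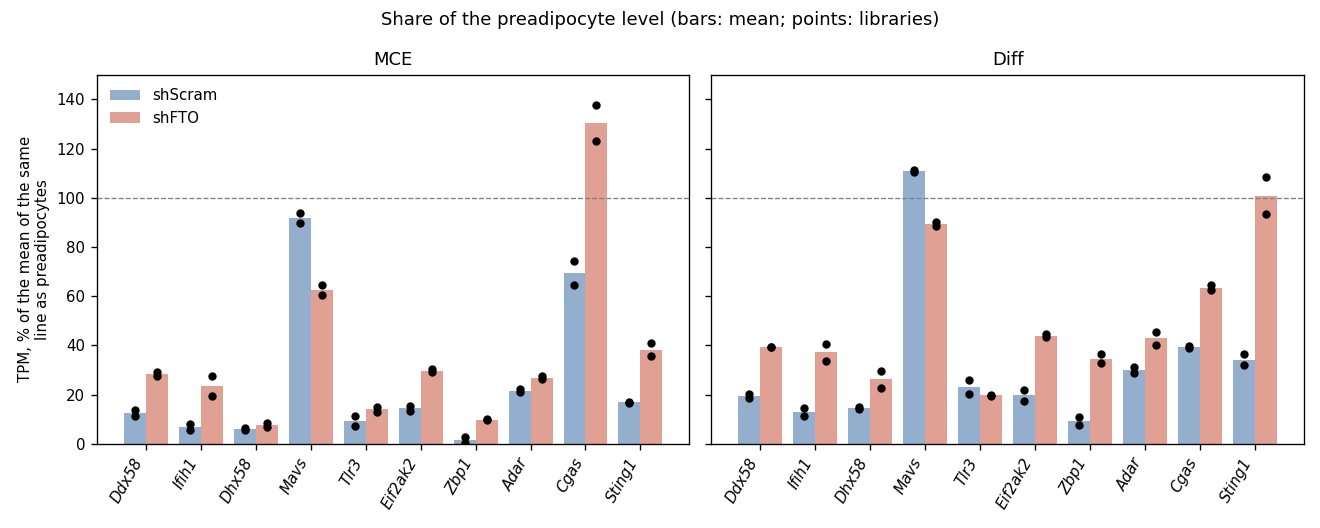
TPM at MCE (left) and Diff (right) as a percentage of the mean of the same line as preadipocytes, with bars for group means and points for the 2 libraries. The dashed line marks 100%, which Sting1 in the shFTO line reaches at Diff (100.9%) while shScram stands at 34.3%.

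The second comparison set the shFTO line against shScram at each stage. In preadipocytes none of the 10 genes rose and 2 fell, where 15.9% of all genes tested were called higher and 12.3% lower (28.2% together). At an unadjusted p under 0.05 the counts were also 0 and 2, where 25.2% of all genes tested were higher and 19.3% lower. Eif2ak2 fell by 1.07 (SE 0.19, adjusted p = 0.00595), a mean of 97.9 ± 15.7 TPM against 208.2 ± 48.6 TPM (SD, n = 2). Ddx58 fell by 0.62 (SE 0.20, adjusted p = 0.0458), with 126.4 ± 9.84 TPM against 199.1 ± 61.7 TPM. PKR and RIG-I, the most abundant of these genes in preadipocytes, were thus the 2 called lower. Beside the 12.3% of all genes tested that were called lower, nothing particular to the 10 is read from that count. The Ddx58 call was lost in 15 of 20 alternative settings, among them the fit without the first shScram Pre library (difference -0.30, adjusted p = 0.0945). The Eif2ak2 call held in 18 of 20 and was lost without the first shFTO Pre library and in the fit of these 4 libraries alone.

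The other 8 genes did not pass in preadipocytes. Their differences were -0.39 for Ifih1, 0.21 for Dhx58, 0.02 for Mavs, -0.10 for Tlr3, 0.44 for Zbp1, 0.14 for Adar, -0.04 for Cgas and 0.16 for Sting1. The 95% intervals show what such values allow. That of Sting1 ran from -0.13 to 0.46 and that of Dhx58, with its unequal control pair, from -0.48 to 0.90. Leaving out the first shScram Pre library turned the direction of Dhx58 (-0.33), Mavs (-0.40, adjusted p = 0.0103), Adar (-0.19), Tlr3 (0.10) and Cgas (0.19). Without the second, Dhx58 (0.75), Mavs (0.44) and Adar (0.47) passed as higher, and 5 genes were called in place of 2.

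At MCE 4 genes rose in the knockdown line and none fell, where 10.5% of all genes tested were called higher and 7.26% lower (17.8% together). The median difference was 0.47 over the 10 genes and 0.05 over all genes. Zbp1 rose by 1.99 (SE 0.27, adjusted p = 0.00139), from 0.62 ± 0.58 to 5.22 ± 0.13 TPM (SD, n = 2). Sting1 rose by 1.22 (SE 0.13, adjusted p = 0.000371), a 2.53-fold difference in mean TPM. Ifih1 rose by 0.97 (SE 0.23, adjusted p = 0.0204) and Cgas by 0.73 (SE 0.19, adjusted p = 0.0283). So transcripts of Cgas and Sting1 from the cytosolic DNA route, of the Z-form sensor gene Zbp1 and of Ifih1 were called higher at this stage. The Zbp1 and Sting1 calls held in all 20 alternative settings, Ifih1 in 17 and Cgas in 9. Median-ratio scaling and quantile normalization each ended the call of Cgas. The count grew without either shScram Pre library, and the added genes then included Mavs as lower (-0.57). It shrank without any one of the MCE or Diff libraries of either line, as Cgas then no longer passed. Without the second shScram or the second shFTO MCE library Ifih1 was lost as well.

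The remaining 6 did not pass at MCE. Ddx58 differed by 0.52 (adjusted p = 0.107), Tlr3 by 0.41, Adar by 0.40, Dhx58 by 0.37 and Eif2ak2 by -0.05. Mavs differed by -0.57 (interval -1.08 to -0.06, adjusted p = 0.121) and passed as lower in 5 of 20 alternative settings, including both other scalings. At an unadjusted p under 0.05, 5 of the 10 genes were higher and 1, Mavs, was lower at MCE, where 17.8% and 12.4% of all genes tested were. Adipocyte markers summed to 357.6 TPM in both shScram MCE libraries and to 261.1 to 270.5 TPM in shFTO MCE, with 5 of 7 tested called lower and 1 higher, and their part in these differences was not tested.

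After differentiation 3 genes rose and none fell, where 11.9% of all genes tested were called higher and 9.31% lower (21.2% together). The median difference of the 10 genes was 0.54, against 0.03 for all genes. Zbp1 rose by 2.07 (SE 0.27, adjusted p = 0.000918), with 18.5 ± 1.35 TPM against 3.69 ± 0.88 TPM. Sting1 rose by 1.65 (SE 0.13, adjusted p = 5.03e-05), with 44.2 ± 4.69 TPM against 13.4 ± 1.24 TPM, a 3.31-fold difference. Ifih1 rose by 0.91 (SE 0.23, adjusted p = 0.0223), with 6.66 ± 0.88 TPM against 3.08 ± 0.57 TPM. Zbp1 and Sting1 held in all 20 alternative settings, also without the shScram Diff library whose labels disagree (2.26 and 1.57), while the Ifih1 call was lost when any of the 4 Diff libraries was left out. The count grew without either shScram Pre library, and the added genes then included Mavs as lower (-0.34).

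Dhx58 at 0.87 (adjusted p = 0.0761) and Adar at 0.60 (adjusted p = 0.0596) came near the threshold at Diff and passed it in 4 and 5 of 20 alternative settings. At an unadjusted p under 0.05, 6 of the 10 genes were higher at Diff and 0 lower, where 18.0% and 15.5% of all genes tested were. Cgas differed by 0.48 (adjusted p = 0.111), Ddx58 by 0.35, Eif2ak2 by 0.08, Tlr3 by -0.28 and Mavs by -0.34. Mavs passed as lower in 3 of 20 alternative settings. The adipocyte markers moved with the line at this stage. Their sum over 8 genes was 1364 to 1376 TPM in shScram Diff and 411.2 to 448.5 TPM in shFTO Diff, and 6 of the 7 tested were called lower. Fibroblast and preadipocyte markers summed to 6646 to 6889 TPM in shScram Diff and 10110 to 10690 TPM in shFTO Diff, with 3 of 8 called higher and 0 lower. The sums of the leukocyte markers overlapped, at 3.01 to 3.44 TPM and 2.80 to 3.62 TPM, with 2 of the 8 tested and neither called. The part of these markers in the differences of the sensors was not tested.

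**Figure D3:**
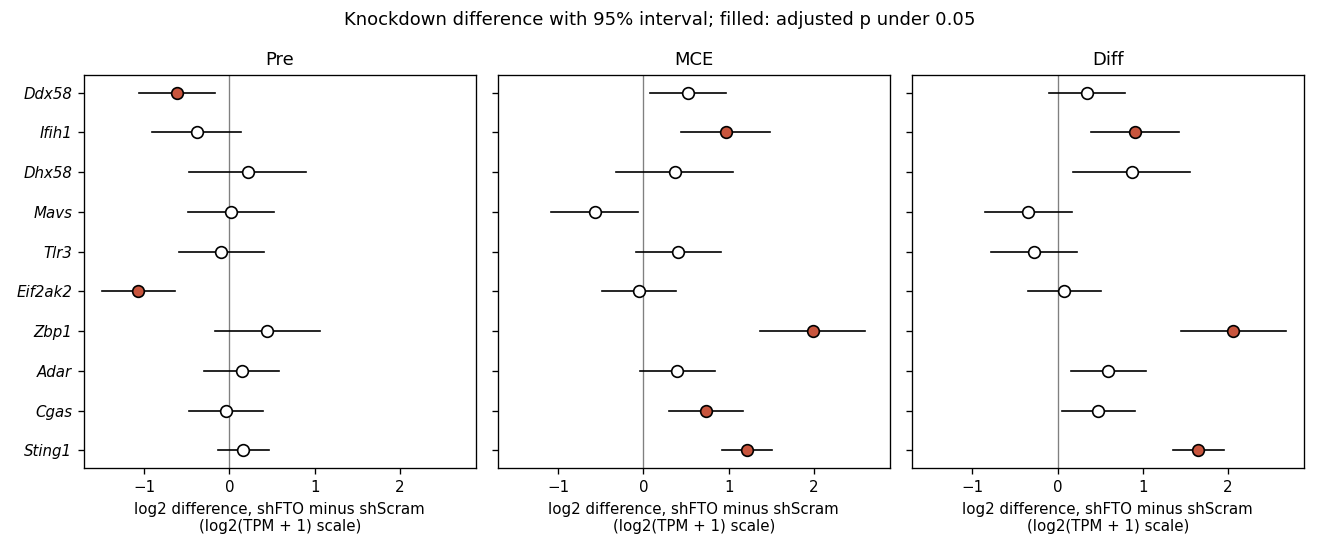
Log2 difference on the log2(TPM + 1) scale, shFTO minus shScram, for the 10 genes at Pre, MCE and Diff, with 95% intervals and filled points where the adjusted p (limma) is under 0.05. Filled points lie left of 0 at Pre (Eif2ak2, Ddx58) and right of 0 at MCE and Diff (Zbp1, Sting1, Ifih1, and Cgas at MCE).

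Whether the difference between the lines itself changed with the stage was tested directly. At MCE against Pre, Sting1 alone passed, with a change of 1.05 (SE 0.18, adjusted p = 0.0157), where 2.52% of all genes tested were called with a positive and 2.59% with a negative change (5.11% together). The changes of Zbp1 (1.54, adjusted p = 0.0568), Ifih1 (1.35, adjusted p = 0.05), Ddx58 (1.14, adjusted p = 0.0519) and Eif2ak2 (1.02, adjusted p = 0.0679) did not. At Diff against Pre 4 genes passed, Sting1 with 1.49 (SE 0.18, adjusted p = 0.00234), Zbp1 with 1.62 (SE 0.39, adjusted p = 0.0363), Ifih1 with 1.30 (SE 0.33, adjusted p = 0.0456) and Eif2ak2 with 1.15 (SE 0.27, adjusted p = 0.0349). All were positive, where 4.06% of all genes tested were called with a positive and 3.61% with a negative change (7.67% together). For Eif2ak2 the change came from a lower level in knockdown preadipocytes and no detectable difference at Diff, not from a higher level at Diff. Both tests use the shScram Pre libraries and share them with the comparison in preadipocytes. More genes passed at both stages without either of these libraries. Without the second they included Mavs, whose change was negative (-1.01 at MCE and -0.78 at Diff), while the others were positive. At MCE no gene passed without the second MCE library of either line or either shFTO Pre library. At Diff 2 passed without either shScram MCE library, and only Sting1 without any one of the other libraries.

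Around the 10 genes, 8 lists of pathway genes were read with the same test, and 114 genes of the lists passed the filter. At Pre 25 of them rose in the knockdown line and 11 fell, at MCE 31 rose and 7 fell, and at Diff 30 rose and 4 fell. The 25 include Ifnb1, which passed the filter only through the shFTO Pre libraries. The counts of higher genes at each stage include Il6, which passed it only with the help of shFTO libraries. Calls at Pre rest on the unequal shScram Pre pair, and fits without either of its libraries are not given for the lists. The backgrounds are those given for each stage. In the list of other double-stranded and Z-form RNA proteins 5 of 22 genes rose at Pre, 11 at MCE and 10 at Diff, and 2, 0 and 0 fell. Ifit1, which binds RNA lacking a proper cap, was at 3.39 and 3.37 TPM in shScram MCE and 39.2 and 43.4 TPM in shFTO MCE and rose by 3.27 (adjusted p = 0.000465). Oas2, which makes the activator of RNase L, was at 3.56 and 5.01 TPM in shScram Diff and 43.9 and 41.3 TPM in shFTO Diff and rose by 3.06 (adjusted p = 3.88e-06). Oas1g, a related synthetase, rose by 1.93 at Pre (adjusted p = 0.00234) from 18.8 and 39.0 TPM to 112.9 and 99.4 TPM, a value that is uncertain because its near-identical neighbours can share reads.

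Among the 14 tested interferon receptors and parts of ISGF3, the complex that carries the interferon signal to the nucleus, 3 rose at Pre, 6 at MCE and 6 at Diff, and 0, 1 and 1 fell. Ifngr1, a receptor chain for interferon gamma, was the one that fell at Diff, at 67.9 and 72.3 TPM in shScram against 44.2 and 49.3 TPM in shFTO (-0.58, adjusted p = 0.00676). Stat2 and Irf9 were chosen after their values were seen. Stat2 was at 17.1 and 15.0 TPM in shScram MCE and 46.4 and 49.0 TPM in shFTO MCE, and at 27.1 and 33.9 TPM against 133.8 and 132.9 TPM at Diff. Irf9 was at 16.5 and 20.3 TPM against 40.5 and 40.0 TPM at Diff. In preadipocytes the Stat2 pair averaged 234.3 TPM in shScram and 220.3 TPM in shFTO. Like Zbp1 and Ifih1, both genes had a higher level in the knockdown line after differentiation.

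Of 20 tested signalling genes downstream of the sensors 1 rose and 3 fell at Pre, 4 rose and 2 fell at MCE, and 2 rose and 1 fell at Diff. Tomm70a, whose protein docks MAVS signalling parts on mitochondria, was lower at Pre, with 118.4 and 79.4 TPM in shScram against 41.7 and 48.0 TPM in shFTO (-1.10, adjusted p = 0.00467). Ikbke, a kinase related to TBK1, was lower at Diff, with 43.0 and 48.4 TPM against 27.6 and 29.4 TPM (-0.66, adjusted p = 0.0234). Among 17 tested modifiers of RIG-I, MDA5 and MAVS 2 rose and 2 fell at Pre, 3 and 1 at MCE, and 3 and 0 at Diff. Rnf125, a ubiquitin ligase that marks RIG-I for degradation, was at 5.58 and 3.50 TPM in shScram Pre and 1.83 and 0.50 TPM in shFTO Pre (-1.40, adjusted p = 0.0147). With background shares at Pre of 15.9% higher and 12.3% lower, nothing particular to either list is read from these counts.

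In the cytosolic DNA list 2 of 19 genes rose and 2 fell at Pre, 1 and 3 at MCE, and 2 and 1 at Diff, beside background shares higher and lower of 15.9% and 12.3%, 10.5% and 7.26%, and 11.9% and 9.31%, and nothing particular to the list is read from them. Ifi204, a DNA-binding protein of the p200 family, was at 174.3 and 145.8 TPM in shScram MCE and 63.8 and 62.1 TPM in shFTO MCE (-1.33, adjusted p = 0.00277). Its relative Ifi205 was at 7.45 and 8.35 TPM against 2.65 and 3.67 TPM (-1.11, adjusted p = 0.0177), and both values are uncertain because the genes of this cluster are alike. Samhd1, which degrades deoxynucleotides, was lower at MCE as well, at 114.1 and 108.1 TPM against 55.3 and 50.1 TPM (-1.06, adjusted p = 0.00061). Aim2, the sensor of the DNA inflammasome, was lower at Pre (-1.06, adjusted p = 0.0276) and at Diff (-1.03, adjusted p = 0.0323), where it had 45.0 and 54.0 TPM in shScram against 23.2 and 24.0 TPM in shFTO. At MCE, Ifi204, Ifi205 and Samhd1 were lower in the knockdown line while Cgas and Sting1 were higher.

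In the endosomal Toll-like receptor list 4 of 9 genes rose and 1 fell at Pre, 1 rose at MCE, and 1 rose and 1 fell at Diff. Cd14, which hands ligands to Toll-like receptors, was at 4.39 and 5.35 TPM in shScram MCE and 48.4 and 47.6 TPM in shFTO MCE (3.06, adjusted p = 0.000951). Of 8 tested genes for eIF2alpha kinases and phosphatase subunits 3 rose and 1 fell at Pre, 1 rose at MCE and 2 rose at Diff.

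Interferons themselves were scarce. The table held 21 interferon genes, of which 15 were listed at 0 in all libraries, and the highest level of any was 1.75 TPM. Ifnb1, the fibroblast interferon, was listed at 0 in all 6 shScram libraries, at 1.75 and 1.09 TPM in shFTO Pre, at 0.14 and 0 TPM in shFTO MCE and at 0 in both shFTO Diff libraries. With 5 genes tested of 15 listed, the list of interferons and induced cytokines had 5 higher at Pre, 4 at MCE and 4 at Diff, and none lower. Of all genes tested 15.9%, 10.5% and 11.9% were called higher at these stages. Il6, Ccl5, Cxcl10 and Ccl2 were the ones called higher at each stage. Ifnb1 passed the filter only through the shFTO Pre libraries, and Il6 only with the help of shFTO libraries. Mean levels of Il6 were 0.46, 1.42 and 0.23 TPM in shScram Pre, MCE and Diff, against 2.19, 9.92 and 1.64 TPM in shFTO. The call of Ifnb1 at Pre and the calls of Il6 were thus favoured by the filter and are not read as results. Cxcl10, a chemokine induced by interferon, was at 24.6 and 21.2 TPM in shScram Pre and 86.9 and 87.0 TPM in shFTO Pre (1.88, adjusted p = 0.000242). It was at 0.65 and 0.65 TPM against 10.9 and 11.4 TPM at MCE (2.88, adjusted p = 2.12e-05), and at 0.06 and 0.20 TPM against 10.6 and 7.64 TPM at Diff (3.15, adjusted p = 5.31e-06). Ccl5, another chemokine of this response, was at 13.7 and 33.1 TPM against 108.6 and 89.9 TPM at Pre (2.16, adjusted p = 0.00825) and at 7.16 and 2.74 TPM against 47.5 and 47.6 TPM at Diff (3.14, adjusted p = 0.000973). Both chemokines were higher in knockdown cells already as preadipocytes, the stage at which none of the 10 sensors and adaptors passed as higher. Of the 8 leukocyte markers 2 were tested there, and Lyz2 rose by 0.76 (adjusted p = 0.0182) with a sum over the list of 5.15 to 8.44 TPM in shScram Pre and 9.50 to 10.98 TPM in shFTO Pre, while Adgre1, Ptprc and Cd3e were at 0 or near it. Their part in the chemokine difference was not tested.

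**Figure D4:**
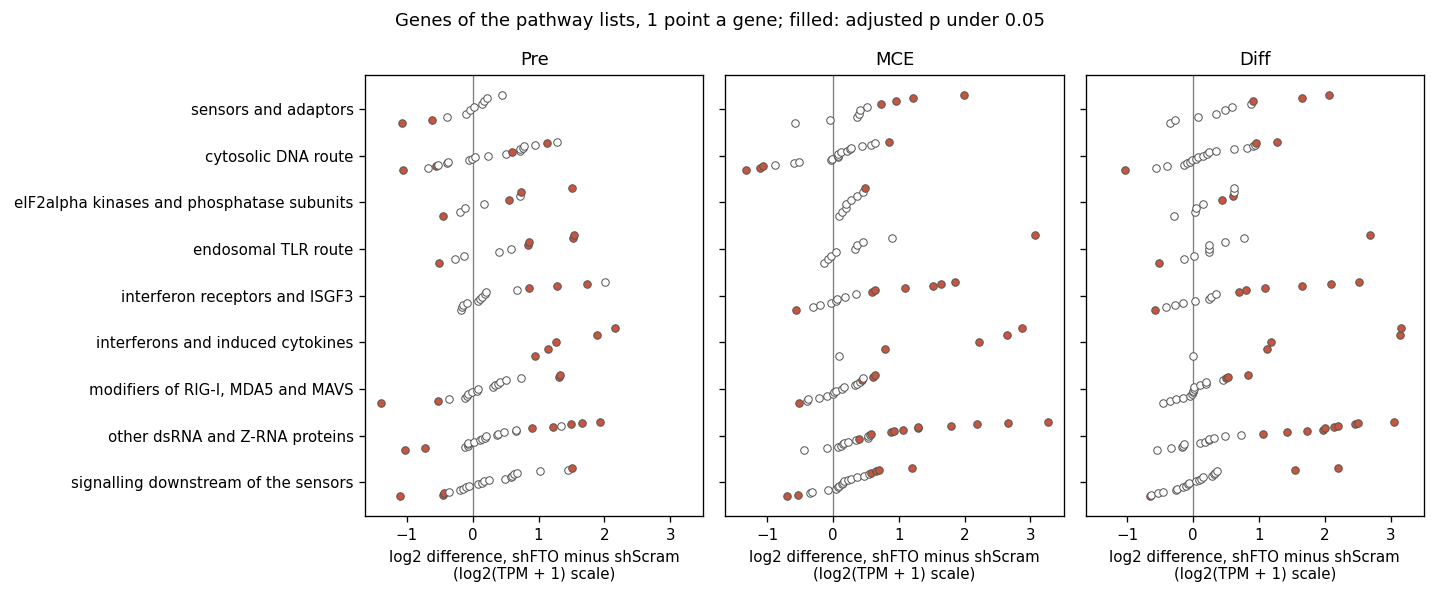
Log2 difference on the log2(TPM + 1) scale, shFTO minus shScram, of the 10 sensors and adaptors (top) and of the tested genes of 8 pathway lists at Pre, MCE and Diff, 1 point per gene and filled where the adjusted p (limma) is under 0.05. At MCE 31 of 114 list genes are filled to the right of 0 and 7 to the left, and at Diff 30 and 4.

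Genes whose TPM followed each sensor most closely were sought among 10799 genes with a mean of at least 5 TPM, by Pearson correlation over the 12 libraries, which share their 6 groups and the large step from Pre to MCE. The nearest gene was Adar for Dhx58 (r = 0.989) and Parp12 for Adar (0.990). Ifih1 was closest to Trim12c (0.995), Tlr3 to Trim21 (0.992), Ddx58 to Syne1 (0.990) and Zbp1 to Slfn8 (0.986). Eif2ak2 was closest to the pseudogene Rbpj-ps3 (0.984). Sting1 was closest to Apaf1 (0.981), Cgas to Ncbp1 (0.978) and Mavs to Cbx6 (0.975). For the mean of Ddx58, Ifih1 and Dhx58 the 10 nearest genes were Rnf213 (0.997), Gbp3, Slc20a1, Parp9, Xaf1, Parp14, Phf11d, Ddx60, Irgm2 and Ifit3 (0.988). These values describe likeness over these libraries and carry no test.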

How the data were processed

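Measurements were the TPM values (levels scaled to a fixed total in each library and corrected for transcript length) deposited by the authors, 1 column per library. The study's methods describe sequencing of fragmented total RNA, the input of an m6A immunoprecipitation, after size selection and poly(A) tailing. They describe this for rhein-treated cells and do not state whether the shScram and shFTO libraries were made in the same way. Per the submitters' processing notes and the study's methods, reads were trimmed with Trim Galore 0.6.5, aligned with HISAT2 2.1.0 to GRCm38 with Ensembl 102 and quantified with StringTie 2.1.4. DESeq2 1.30.1, used by the authors on counts, was not repeated. TPM keeps no depth, so no counting error is given, and shares of a library taken by other genes affect every value.

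Log2(TPM + 1) of 15968 genes with at least 1 TPM in at least 2 libraries was fitted with limma 3.58.1 (R 4.3.3), 1 mean per group over 12 libraries (6 residual degrees of freedom, trended variance), and Benjamini-Hochberg adjustment over all genes tested. A gene was called at an adjusted p under 0.05. All tests were two-sided, and fold changes on this scale understate those of low genes. The script was tested on simulated data. The members and lists were chosen with earlier results of these data known. From the lists, the 3 highest and 3 lowest called genes per knockdown comparison, with a mean of at least 1 TPM, were named. Of the table's identifiers 99.38% were found in GENCODE M21, from which positions came. Correlations of replicate differences between lines were -0.20 at Pre, 0.01 at MCE and -0.02 at Diff, so replicate numbers were not taken as pairs. No 2 libraries were identical. The planned comparison of receptor proteins was not run. Alternatives were pseudocount, filter, scaling, variance trend, block, libraries fitted and leaving out each library.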

Additional observations from a re-analysis of the deposited data

Results flagged for a closer look

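The difference between the shFTO and shScram lines changed with the stage, by a test of the change itself, for 4 of the 10 genes. Sting1 changed by 1.05 from Pre to MCE (adjusted p = 0.0157, limma) and by 1.49 from Pre to Diff (adjusted p = 0.00234). From Pre to Diff, Zbp1 changed by 1.62 (adjusted p = 0.0363), Ifih1 by 1.30 (adjusted p = 0.0456) and Eif2ak2 by 1.15 (adjusted p = 0.0349). Sting1 at Diff held in all 20 alternative settings, Sting1 at MCE in 14, Zbp1 in 9, Eif2ak2 in 7 and Ifih1 in 6.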

How the results depend on the processing

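Of the 10 genes, 2 were called between the lines at Pre, 4 at MCE and 3 at Diff. With no filter on low values the counts were 1 at Pre and 2 at MCE, and 3 of 10 from MCE to Diff in shScram. Without a variance trend Pre gave 1. Fitted on only the libraries of the contrast, Pre gave 0 (1 at an unadjusted p under 0.05, on 2 residual degrees of freedom), MCE and Diff 7 each, and MCE to Diff in shFTO 9. At both MCE and Diff the 7 included Mavs, called lower. Quantile normalization gave 5 at Diff. The change of the line difference from Pre to MCE gave 2 calls with a mean TPM of 5 or more or without a trend and 0 from its own libraries (6 at an unadjusted p under 0.05). That from Pre to Diff gave 2 with a pseudocount of 0.1 and 1 with no filter or from its own libraries. With a replicate block the line comparison gave 1, 4 and 3 calls at Pre, MCE and Diff, and the change from Pre to Diff gave 2; the numbers did not pair the samples. Leaving out 1 library gave 0 to 5 calls at Pre, 2 to 7 at MCE and 2 to 8 at Diff, 2 to 10 from MCE to Diff in shScram and 2 to 9 in shFTO, and 0 to 7 and 1 to 7 for the changes from Pre to MCE and to Diff. From Pre to MCE the settings gave 7 to 10 calls in shScram and 8 or 9 in shFTO. The causes were not tested. Mavs at Pre turned to -0.071 under median-ratio scaling and -0.13 under quantile normalization. Leaving out 1 library gave -0.40 to 0.44 for Mavs, -0.33 to 0.75 for Dhx58, -0.29 to 0.10 for Tlr3, -0.19 to 0.47 for Adar and -0.27 to 0.19 for Cgas at Pre, and for Eif2ak2 -0.15 to 0.053 at MCE and -0.082 to 0.24 at Diff. Median-ratio scaling moved the median of all genes from -0.17 to -0.0028 for Pre to MCE in shScram and from 0.23 to 0.03 for MCE to Diff. Having 2 libraries per group and an unknown depth limits all of these values.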
